A study of Mus musculus with 33 samples.

Results

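The genes described here are direct transcriptional targets of the tumour suppressor p53, together with the p53 gene itself. They were chosen by name as 33 genes in 5 functional arms: p53 and its feedback inhibitor, cell cycle arrest, apoptosis, DNA repair, and metabolism. Of these, 31 were measured, out of 18193 genes with a measurement in all. Trp53, the p53 gene, and Bax, a pore-forming protein of apoptosis, had no probe set that carried their symbol alone and were not analysed here. The 21 Affymetrix arrays hold total RNA from livers or liver tumours of mice aged 12 months, on a mixed FVB/NT, 129S1/Svlmj and C57BL/6NT background. The 1KI group holds 5 tumours of E2f1 knock-in mice, and the 3bKI group holds 4 tumours of E2f3b knock-in mice. The 3aKO group holds 5 livers of E2f3a knock-out mice, and the wt group holds 7 livers of wildtype mice. The tumours were labelled as spontaneous hepatocellular carcinoma and the 3aKO and wt livers as normal, so knock-in genotype and tumour status cannot be told apart. No group pairs normal tissue with a knock-in allele, and the labels name no locus or promoter for the knock-ins.

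The p53 protein binds a response element of paired half-sites near its target genes and raises their transcription after DNA damage, oncogene activity or other stress. The products of these targets halt the cell cycle, start apoptosis, repair DNA and restrain growth signalling, and Mdm2 closes the loop by marking p53 for degradation. E2f1 and E2f3b belong to the E2F family of transcription factors, which control cell cycle genes, and loss of p53 activity is a known step in liver cancer.

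All values are log2 expression, in which a difference of 1 is a doubling. The wt and 3aKO arrays were normalized once with the 1KI arrays (normalization 1) and once with the 3bKI arrays (normalization 2), so the tumour groups were each set against the same livers but not against each other. Values of single arrays follow the replicate numbers, and limma's adjusted p, taken over all 18193 genes, had to be under 0.05 for a gene to be called. The labels do not say that replicates are separate animals, so p measures the spread between these samples. On the first principal component of normalization 1, 1KI replicates 3 and 4 lay at 61.0 and 69.8, and the other 15 arrays lay between -17.0 and 5.08. Hepatocyte markers were high in all groups. Their mean log2 level over 8 measured genes was 13.92 to 14.15 in 1KI, 14.09 to 14.19 in 3aKO and 14.03 to 14.24 in wt, and in normalization 2 it was 13.86 to 14.03 in 3bKI, 14.06 to 14.16 in 3aKO and 13.99 to 14.21 in wt. Every 3bKI array lay below every 3aKO array in this mean, and 1 of the 8 markers was called lower in 3bKI than in 3aKO, where 6.27% of all genes were. In bulk tissue, fewer cells of a type and less RNA per cell cannot be told apart.

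In 1KI tumours, p53 targets lay mostly above wt livers, and 4 of 31 were called higher: Phlda3, Plk2, Ddit4l and Polk, at log2 changes of 0.63 to 1.62. None was called lower, and none had all 1KI arrays below all wt arrays (0.863% of all genes did). Of all genes, 0.209% were called higher and 0.0330% lower in this comparison. The group mean was higher in 1KI for 25 of 31 targets, against 43.3% of all genes, and the median log2 change was 0.46, against -0.03 over all genes. At an unadjusted p under 0.05, 15 targets were higher, against 9.05% of all genes, and 0 were lower, against 1819 of the 18193 genes. In 8 targets every 1KI array lay above every wt array, as it did for 1.12% of all genes. Among 12 fits that each left out 1 array, Plk2 was called in 3, Phlda3 and Ddit4l in 2 each, and Polk in 1. Without any single one of 1KI replicate 5 and wt replicates 1, 2, 3, 4, 5 and 7, no target was called, and without 1KI replicates 3 and 4 together 3 were called. The latter fit called 38 of all 18193 genes higher and 1 lower. With quantile normalization none was called: the adjusted p was 0.0531 for Phlda3, Polk and Ddit4l and 0.0727 for Plk2.

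Against 3aKO livers, 0 of 31 targets were called in 1KI tumours, in a comparison with 0% of all genes called in either direction. At an unadjusted p under 0.05, 15 targets were higher and 0 lower, against 6.00% and 8.01% of all genes. The group mean was higher in 1KI for 23 of 31 targets, against 45.3% of all genes, and the median log2 change was 0.37, against -0.02 over all genes. In 5 targets, Mdm2, Plk2, Zmat3, Phlda3 and Polk, every 1KI array lay above every 3aKO array, against 1.45% of all genes, and 0 separated downward, against 1.96%. This comparison shares its 1KI arrays with the one against wt.

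In 3bKI tumours, 1 of 31 targets, Btg2, was called higher than in wt livers and 0 lower, against 1.09% and 0.978% of all genes. The median log2 change was 0.32, against 0.01 over all genes, and 26 targets had a higher group mean in 3bKI, against 53.1% of all genes. At an unadjusted p under 0.05, 15 targets were higher and 1 lower, against 9.84% and 10.9% of all genes. Only Btg2 and Ckap2 had every 3bKI array above every wt array, against 1.90% of all genes, and no target had them all below, against 2.38%. Against 3aKO livers, 3 targets (Btg2, Polk and Psrc1) were called higher and 1 (Ei24) lower, against 2.92% and 6.27% of all genes, with a median log2 change of 0.35 against 0.03 over all genes. There 23 of 31 targets had a higher group mean in 3bKI, against 54.7% of all genes, and 11 were higher and 3 lower at an unadjusted p under 0.05, against 13.4% and 15.7%. With quantile normalization none of these 4 was called against 3aKO (adjusted p of 0.0541 to 0.0932), and Bcl2l1 alone was (0.49 ± 0.11, adjusted p = 0.0360). With each array centred on its median, 3 were called higher and 3 lower, with Ddb2 and Perp beside Ei24. Of all 18193 genes, 328 were then called higher and 1638 lower. Without 3bKI replicate 2, 3 targets were called higher against wt (Btg2, Phlda3 and Ddit4l) and 4 against 3aKO (Ccng1, Phlda3, Polk and Psrc1). Of all 18193 genes, 127 were then called higher and 37 lower against wt, and 306 and 631 against 3aKO. Among 9 fits against 3aKO that each left out 1 array, Psrc1 was called in 7, Btg2, Ei24 and Polk in 2 each, and no target without 3aKO replicate 4.

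**Figure D1:**
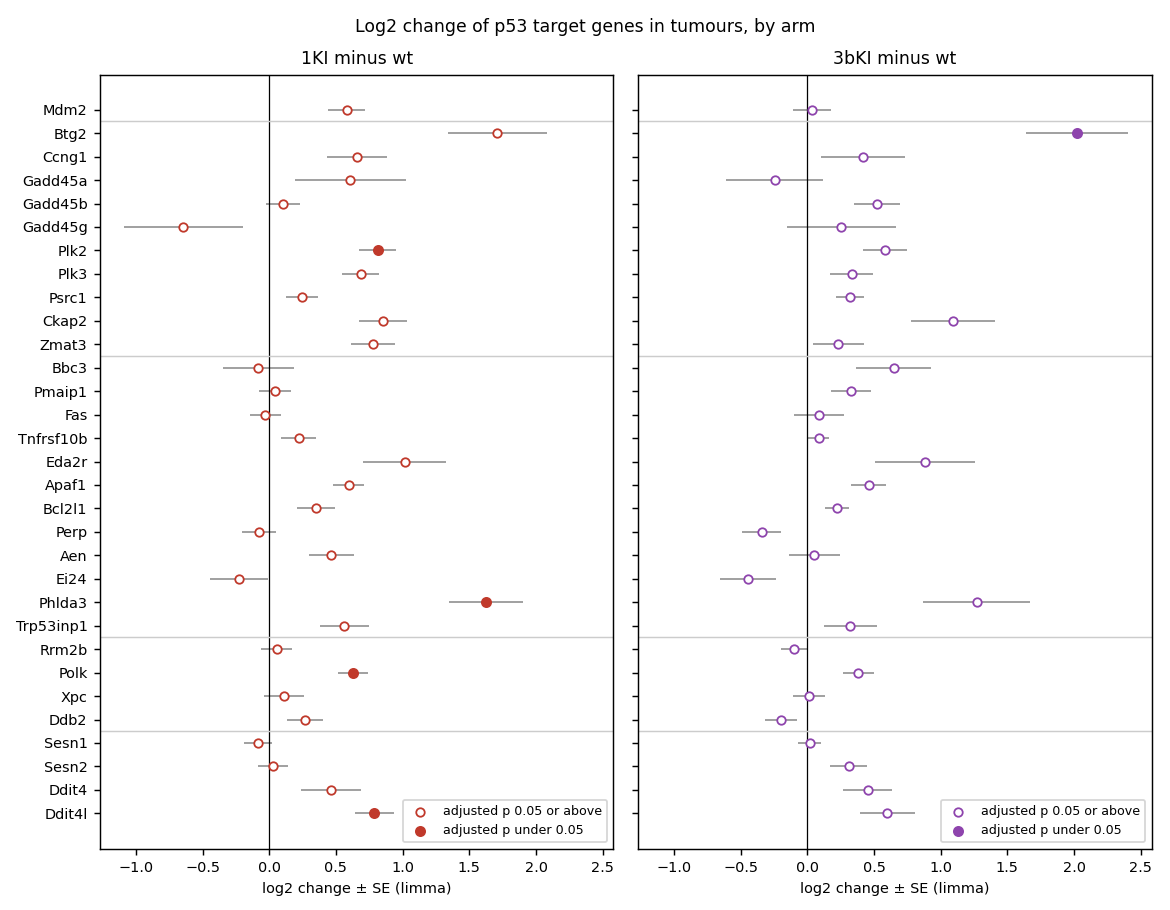
Log2 change of each measured p53 target (vertical axis, grouped by arm) in 1KI tumours minus wt livers (left) and in 3bKI tumours minus wt livers (right), with the limma standard error as bars and filled points for adjusted p under 0.05. Most points lie right of 0 in both panels; Phlda3, Plk2, Polk and Ddit4l are filled on the left, and Btg2 alone on the right.

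The 3aKO livers, labelled normal, had a median near 0. Against wt, 0 of 31 targets were called, with 0% of all genes called in either direction. The median log2 change was 0.04, 17 targets had a higher group mean in 3aKO against 50.5% of all genes, and no target separated the groups, against 0.214% of all genes higher and 0.286% lower. Xpc was the single target at an unadjusted p under 0.05, with a log2 change of 0.22 ± 0.10 (SE), against 3.62% of all genes higher at that level and 3.84% lower.

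Mdm2, the ubiquitin ligase that inhibits p53, was at 9.41, 9.62, 9.08, 9.45 and 9.68 in 1KI tumours, at 8.79, 8.80, 8.69, 8.75 and 9.05 in 3aKO livers, and at a lowest, median and highest of 8.57, 8.73 and 9.28 in wt livers. All 1KI arrays lay above all 3aKO arrays, and 1KI replicate 3 fell among the wt arrays. Mdm2 was not called in 1KI, with a log2 change of 0.58 ± 0.14 (SE) relative to wt (adjusted p = 0.101). Relative to 3aKO it was 0.63 ± 0.12 (adjusted p = 0.113). In 3bKI tumours Mdm2 was at 8.92, 8.37, 8.76 and 8.57, against a range of 8.38 to 8.75 in 3aKO livers and 8.35, 8.48 and 9.01 in wt livers (lowest, median, highest). The groups overlapped throughout, and the log2 change against wt was 0.04 ± 0.14 (adjusted p = 0.910). Without 1KI replicates 3 and 4, of which replicate 3 had the lowest 1KI value, Mdm2 was called against 3aKO, at 0.76 ± 0.10 (adjusted p = 0.0478). Leaving out any 1 array gave no call of a target in 1KI against 3aKO.

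The promoters of the targets were read for the p53 half-site consensus, in windows of 250 bases before to 50 after the start of the gene (RefSeq, GRCm38.p6). The consensus reads the same on both strands. Target windows on 1 chromosome were not counted, while the count over all genes kept every chromosome. Of the 31 measured targets, 23 had a counted window, and 9 of these (39.1%) held an exact half-site. Of the 27025 genes with a window, 9.55% did. A pair of half-sites, with at most 2 mismatches and at most 1 base between them, stood in the windows of 2 targets, Ccng1 and Ckap2, against 0.807% of all genes. The Mdm2 stretch is shown because this gene defines the feedback loop; the capitals mark the half-site, 177 to 186 bases before the start, on the minus strand at chr10:117710910-117710969.
Mdm2: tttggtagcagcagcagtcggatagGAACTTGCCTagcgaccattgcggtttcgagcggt
A match describes the letters of the window and says nothing of binding. The genes were listed as direct p53 targets, so their higher shares are not a result of these data.

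Among the 10 arrest genes, the median log2 change was 0.67 in 1KI tumours and 0.37 in 3bKI tumours, each against wt. The arm includes Psrc1 and Ckap2, which encode mitotic spindle proteins and lay above 0 in both tumour groups. In 1KI, 9 of 10 lay above 0, 6 at an unadjusted p under 0.05, and Plk2 alone was called, against 43.3%, 9.05% and 0.209% of all genes. In 3bKI, 9 of 10 also lay above 0, 5 at an unadjusted p under 0.05, and Btg2 alone was called, against 53.1%, 9.84% and 1.09% of all genes.

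Btg2 encodes an antiproliferative protein that promotes shortening of mRNA tails, and it is also an immediate early gene. It was at 8.35, 11.03, 9.37 and 9.58 in 3bKI tumours, at 8.63, 7.27, 8.17, 7.02 and 7.55 in 3aKO livers, and at a lowest, median and highest of 6.98, 7.66 and 8.04 in wt livers. Every 3bKI array lay above every wt array, while 3bKI replicate 1 lay below 3aKO replicate 1. The mean was 9.58 ± 1.10 (SD, n = 4) in 3bKI against 7.56 ± 0.37 (SD, n = 7) in wt. This is a 4.06-fold increase, or 2.02 ± 0.38 on the log2 scale (SE, adjusted p = 0.0274). Against 3aKO the log2 change was 1.85 ± 0.49 (adjusted p = 0.0458). Without 3bKI replicate 2, the array with the highest Btg2, the difference was 1.54 ± 0.27 from wt (adjusted p = 0.0277) and 1.37 ± 0.39 from 3aKO, where the call was lost (adjusted p = 0.0733). Against wt the call was lost without any single one of 3bKI replicates 3 and 4 and wt replicates 1 to 5.

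In 1KI tumours Btg2 was at 8.76, 8.62, 10.64, 10.68 and 8.94, against 8.80, 7.55, 8.36, 7.28 and 7.75 in 3aKO livers and 7.30, 7.90 and 8.29 in wt livers (lowest, median, highest). Replicates 3 and 4 stood far above the other 1KI arrays, and all 5 lay above all wt arrays. The log2 change against wt was 1.71 ± 0.37 (adjusted p = 0.0780), and it was 0.95 ± 0.19 without replicates 3 and 4 (adjusted p = 0.103). The median of 13 immediate early genes, as a difference from the wt mean, was 1.16 and 1.05 in 1KI replicates 3 and 4 and 0.12 to 0.25 in the others. In 3bKI replicates 1 to 4 it was 0.10, 1.31, 1.14 and 0.53, and Btg2 was lowest in the first of these arrays and highest in the second. High levels were not confined to tumours. The mean level of the 13 genes was 7.14 to 8.61 in 1KI, and the highest 3aKO array was at 8.05. In normalization 2 it was 7.16 to 8.64 in 3bKI, and the highest 3aKO array was at 7.97. The part of the immediate early genes in the Btg2 difference was not tested.

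Plk2, a polo-like kinase of centriole duplication and stress, was at 8.31, 8.83, 8.04, 8.22 and 8.71 in 1KI tumours, at 7.40, 7.62, 7.52, 7.92 and 7.91 in 3aKO livers, and at 7.35, 7.58 and 7.83 in wt livers (lowest, median, highest). All 1KI arrays lay above all others. Plk2 rose 1.76-fold relative to wt, by 0.81 ± 0.14 in log2 (SE, adjusted p = 0.0388), and differed by 0.75 ± 0.17 from 3aKO (adjusted p = 0.163). In 3bKI tumours Plk2 was at 7.77, 7.66, 8.62 and 8.18, against a range of 7.29 to 7.81 in 3aKO and 7.24, 7.50 and 7.70 in wt (lowest, median, highest). All but replicate 2 lay above the wt arrays, and the log2 change of 0.58 ± 0.17 was not called (adjusted p = 0.0844). A second probe set of Plk2 differed in 1KI, with a log2 change of -0.10 ± 0.12 against wt, but in 3bKI it gave 0.46 ± 0.13.

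Plk3, a stress-activated kinase of the same family, was at 8.17, 7.84, 7.74, 8.32 and 7.99 in 1KI tumours, at 7.90, 7.07, 8.22, 7.77 and 7.55 in 3aKO livers and at 6.98, 7.25 and 7.69 in wt livers (lowest, median, highest). The 1KI arrays cleared the wt arrays but not the 3aKO arrays, and the differences were 0.69 ± 0.14 from wt (adjusted p = 0.0718) and 0.31 ± 0.20 from 3aKO (adjusted p = 0.484). In 3bKI it was at 7.28, 7.48, 7.72 and 7.77, within or just above the wt range of 6.87 to 7.54 (log2 change 0.33 ± 0.16, adjusted p = 0.259).

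Psrc1 and Ckap2 encode microtubule-associated proteins of the mitotic spindle. Psrc1 was at 5.88, 5.99, 5.94 and 5.95 in 3bKI tumours, at 5.67, 5.65, 5.56, 5.46 and 5.57 in 3aKO livers and at 5.38, 5.57 and 6.01 in wt livers (lowest, median, highest). The 3bKI arrays were tightly grouped and lay above all 3aKO arrays but not above all wt arrays. The log2 change was 0.36 ± 0.07 against 3aKO (SE, adjusted p = 0.0217) and 0.32 ± 0.10 against wt (adjusted p = 0.117). In 1KI tumours it was at 5.60, 5.76, 6.11, 6.19 and 5.79, with replicates 3 and 4 highest, against a range of 5.50 to 5.73 in 3aKO and 5.39 to 5.97 in wt (log2 change against wt 0.24 ± 0.12, adjusted p = 0.279). The 3 probe sets of Psrc1 did not move alike in 3bKI against 3aKO: the others gave log2 changes of 0.74 ± 0.25 and -0.14 ± 0.09.

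Ckap2, Ccng1, Zmat3, Eda2r and Bbc3 are given by array although their values had been seen when they were picked. Ckap2 was at 5.43, 7.36, 6.37 and 5.38 in 3bKI tumours, against a range of 5.07 to 5.58 in 3aKO and 4.58, 5.06 and 5.31 in wt (lowest, median, highest). Replicate 2 was far above the rest. The log2 change of 1.09 ± 0.31 against wt was not called (adjusted p = 0.0876). In 1KI tumours Ckap2 was at 5.32, 5.79, 6.03, 6.32 and 6.27, against 4.54, 5.18 and 5.35 in wt, with 1KI replicate 1 alone in the wt range (log2 change 0.86 ± 0.18, adjusted p = 0.0779). The median of 16 mitosis genes, relative to the wt mean, was 3.06 in 3bKI replicate 2 and 0.01, 1.09 and 0.19 in replicates 1, 3 and 4. In 1KI it was 0.82 and 1.36 in replicates 3 and 4 and 0.13 to 0.36 in the others. The part of dividing cells in the Ckap2 and Psrc1 values was not tested.

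Ccng1, or cyclin G1, helps regulate Mdm2 activity, and Zmat3 is an RNA-binding zinc finger protein that affects splicing. Ccng1 was at 10.03, 10.18, 9.32, 9.42 and 10.38 in 1KI tumours, at 8.79, 8.81, 8.86, 8.93 and 9.53 in 3aKO livers and at 8.66, 9.29 and 9.79 in wt livers (lowest, median, highest). Replicates 1, 2 and 5 lay above all wt arrays, and replicates 3 and 4 did not. Its log2 change relative to wt was 0.66 ± 0.22 (adjusted p = 0.176). Without replicates 3 and 4, the 1KI arrays with the lowest Ccng1, it was 1.21 ± 0.17 against 3aKO, a call (adjusted p = 0.0488). In 3bKI Ccng1 was at 9.74, 8.29, 9.90 and 10.13, against 8.56, 9.16 and 9.69 in wt: 3 arrays lay above all wt arrays and replicate 2 below them all. Zmat3 was at 7.91, 8.16, 7.67, 7.70 and 8.25 in 1KI tumours, against a range of 7.00 to 7.43 in 3aKO and 6.53 to 7.43 in wt. All 1KI arrays lay above all liver arrays, with a log2 change of 0.78 ± 0.17 against wt and 0.81 ± 0.13 against 3aKO that missed the threshold (adjusted p = 0.0779 and 0.0788). In 3bKI the log2 change of Zmat3 was 0.23 ± 0.19 against wt (adjusted p = 0.511).

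The promoter windows of Ccng1 and Ckap2 are shown in full because they hold the paired half-sites. Both lie on the minus strand, Ccng1 at chr11:40755237-40755536 and Ckap2 at chr8:22185770-22186069. The capitals mark the pair, which runs from 195 to 176 bases before the start in Ccng1 with 1 mismatch, and from 203 to 184 bases before it in Ckap2 with 2 mismatches.
Ccng1: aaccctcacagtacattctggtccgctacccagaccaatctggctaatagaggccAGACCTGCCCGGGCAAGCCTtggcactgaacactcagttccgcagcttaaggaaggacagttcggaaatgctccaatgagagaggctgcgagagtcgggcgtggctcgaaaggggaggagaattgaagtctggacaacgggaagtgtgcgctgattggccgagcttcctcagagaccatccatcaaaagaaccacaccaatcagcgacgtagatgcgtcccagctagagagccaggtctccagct
Ckap2: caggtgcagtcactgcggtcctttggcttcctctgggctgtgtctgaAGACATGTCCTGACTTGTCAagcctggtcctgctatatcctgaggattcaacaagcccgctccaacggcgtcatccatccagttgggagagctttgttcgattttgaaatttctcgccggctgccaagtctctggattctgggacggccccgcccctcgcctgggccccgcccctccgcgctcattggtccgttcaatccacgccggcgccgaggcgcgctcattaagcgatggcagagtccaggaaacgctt

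The 3 Gadd45 genes encode stress sensors that bind regulators of the cell cycle and of kinase cascades. None was called in the tumours. The log2 change of Gadd45a was 0.61 ± 0.42 in 1KI and -0.25 ± 0.36 in 3bKI, and that of Gadd45g -0.65 ± 0.45 and 0.26 ± 0.41, each against wt. Both also varied widely in wt, where Gadd45a ran from 5.78 to 7.95 and Gadd45g from 6.81 to 8.46 in normalization 1. That of Gadd45b was 0.10 ± 0.13 in 1KI and 0.52 ± 0.17 in 3bKI (adjusted p = 0.676 and 0.120).

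**Figure D2:**
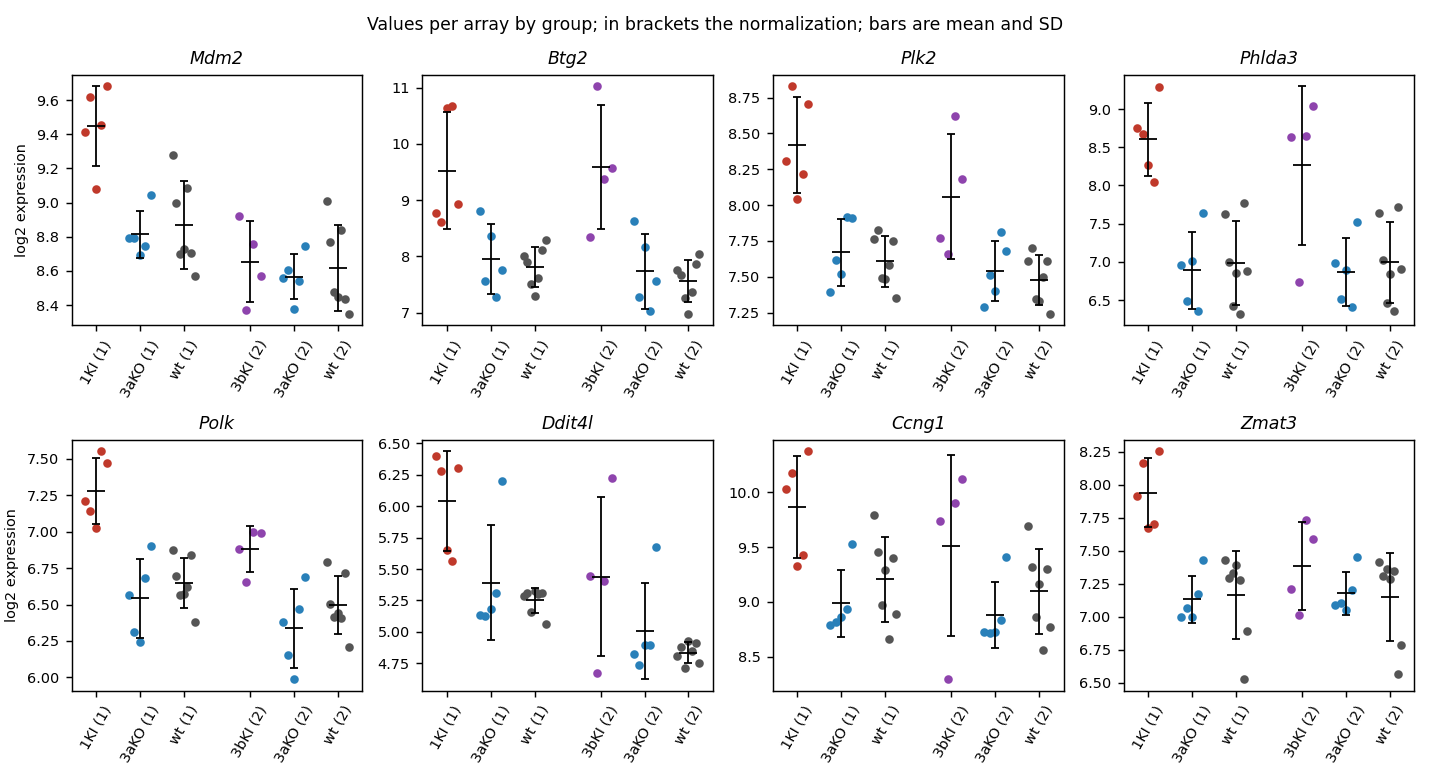
Log2 expression (vertical axis) of 8 p53 targets in each array, by group with its normalization in brackets, with bars for the mean and SD. The 1KI arrays lie above all wt arrays in Btg2, Plk2, Phlda3, Polk, Ddit4l and Zmat3, and 1 of the 4 3bKI arrays lies no higher than the wt arrays in Phlda3, Ddit4l and Ccng1.

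Among the 12 measured apoptosis genes, the median log2 change against wt was 0.28 in 1KI and 0.27 in 3bKI. In 1KI, 8 of 12 lay above 0 and 1 was called, against 43.3% and 0.209% of all genes. In 3bKI, 10 of 12 lay above 0 and 0 were called, against 53.1% and 1.09% of all genes. Phlda3, a small lipid-binding protein that competes with the kinase Akt, was the target with the largest change among those called in 1KI. It was at 8.75, 8.67, 8.27, 8.05 and 9.29 in 1KI tumours, at 6.96, 6.49, 7.01, 6.36 and 7.63 in 3aKO livers, and at a lowest, median and highest of 6.32, 6.88 and 7.77 in wt livers. Every 1KI array lay above every 3aKO and wt array. The mean was 8.61 ± 0.48 (SD, n = 5) in 1KI against 6.98 ± 0.55 (SD, n = 7) in wt. This is a 3.08-fold increase, or 1.62 ± 0.27 on the log2 scale (SE, adjusted p = 0.0367). Against 3aKO it was 1.72 ± 0.27 (adjusted p = 0.0788).

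In 3bKI tumours Phlda3 was at 8.64, 6.73, 8.65 and 9.04, against a range of 6.41 to 7.52 in 3aKO livers and 6.35, 6.90 and 7.72 in wt livers (lowest, median, highest). Of the 4 arrays, 3 lay above all livers and replicate 2 lay among them. With all 4 arrays it was not called: the log2 change was 1.27 ± 0.40 relative to wt (adjusted p = 0.108). Relative to 3aKO it was 1.40 ± 0.43 (adjusted p = 0.0658). Without replicate 2, the 3bKI array with the lowest Phlda3, both differences were called. They were 1.78 ± 0.28 for wt (adjusted p = 0.0178) and 1.91 ± 0.23 for 3aKO (adjusted p = 0.00951).

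Apaf1, the scaffold of the apoptosome, was at 6.03, 5.89, 6.47, 6.55 and 6.13 in 1KI tumours, at 5.69, 5.30, 5.85, 5.39 and 6.10 in 3aKO livers and at 5.48, 5.60 and 5.79 in wt livers (lowest, median, highest). All 1KI arrays lay above all wt arrays, with a log2 change of 0.59 ± 0.12 that was not called (adjusted p = 0.0601). In 3bKI it was at 5.51, 5.87, 6.23 and 5.70, against 5.15, 5.43 and 5.62 in wt, with replicate 1 in the wt range (0.46 ± 0.13, adjusted p = 0.0896).

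Ei24, an endoplasmic reticulum membrane protein linked to autophagy, was at 11.34, 10.56, 11.24 and 11.14 in 3bKI tumours, at 11.67, 11.39, 11.90, 11.68 and 11.95 in 3aKO livers, and at 10.79, 11.61 and 12.02 in wt livers (lowest, median, highest). It fell in 3bKI relative to 3aKO, with every tumour array below every 3aKO array (log2 change -0.65 ± 0.17, adjusted p = 0.0443). It overlapped wt, with a log2 change of -0.44 ± 0.21 (adjusted p = 0.257). In 1KI tumours Ei24 was at 11.61, 11.80, 10.84, 11.02 and 11.75, with replicates 3 and 4 lowest, against 10.91, 11.74 and 12.11 in wt (-0.22 ± 0.22, adjusted p = 0.576). In the same 3bKI comparison 2 targets separated the groups downward, Ei24 and Ddb2, against 8.95% of all genes, and 3 upward, Psrc1, Bbc3 and Bcl2l1, against 6.03%.

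Eda2r, a receptor of the tumour necrosis factor family, was at 5.42, 4.78, 4.77, 4.27 and 6.30 in 1KI tumours, at 3.80, 4.13, 3.91, 3.88 and 5.00 in 3aKO livers and at 3.73, 3.90 and 4.96 in wt livers (lowest, median, highest). Replicates 1 and 5 lay above all wt arrays and the others did not. The log2 change in 1KI was 1.02 ± 0.31 relative to wt (adjusted p = 0.156). In 3bKI Eda2r was at 4.15, 3.51, 5.82 and 4.82, against 3.33, 3.43 and 4.63 in wt, a log2 difference of 0.88 ± 0.37 (adjusted p = 0.207).

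Bbc3, known as Puma, and Pmaip1, known as Noxa, are the proteins by which p53 most directly starts mitochondrial apoptosis. Bbc3 was at 7.03, 7.03, 7.49, 7.24 and 6.73 in 1KI tumours, against 6.66, 6.93 and 8.46 in wt livers (lowest, median, highest), a log2 change of -0.08 ± 0.27 (adjusted p = 0.881). In 3bKI it was at 7.61, 7.54, 7.72 and 7.98, against a range of 6.82 to 7.50 in 3aKO and 6.62, 6.74 and 8.33 in wt. All 3bKI arrays lay above all 3aKO arrays and all but 1 wt array, with log2 changes of 0.47 ± 0.14 against 3aKO (adjusted p = 0.0650) and 0.65 ± 0.28 against wt (adjusted p = 0.217). Without wt replicate 6, the high wt array, Bbc3 was called against wt at 0.86 ± 0.15 (adjusted p = 0.0235). That array was singled out by its Bbc3 value, so the call is not separate support. The log2 change of Pmaip1 was 0.04 ± 0.12 in 1KI and 0.33 ± 0.15 in 3bKI (adjusted p = 0.867 and 0.240).

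Neither death receptor was called: the log2 change of Fas was -0.03 ± 0.12 in 1KI and 0.09 ± 0.19 in 3bKI, and that of Tnfrsf10b 0.22 ± 0.13 and 0.08 ± 0.08, each against wt. Tnfrsf10b was dim, with a mean log2 value of 4.68 over both normalizations, against 8.44 for Fas. Bcl2l1, which encodes an inhibitor of apoptosis, differed from wt by 0.35 ± 0.14 in 1KI (adjusted p = 0.223), and by 0.08 ± 0.10 without replicates 3 and 4. Its mean in 3bKI was 9.08, against 8.72 in 3aKO and 8.86 in wt, with no call against either. Against 3aKO it was called in some alternatives, among them quantile normalization and the fit of all 3 groups. Aen, a nuclease of apoptosis, and Trp53inp1, a p53 cofactor, were not called: they differed from wt by 0.46 ± 0.17 and 0.56 ± 0.18 in 1KI (adjusted p = 0.193 and 0.165) and by 0.05 ± 0.19 and 0.32 ± 0.20 in 3bKI (adjusted p = 0.903 and 0.384). Perp, a membrane protein of cell junctions, had a log2 change of -0.08 ± 0.13 in 1KI and of -0.34 ± 0.15 in 3bKI, and it was the 1 target lower than wt in 3bKI at an unadjusted p under 0.05 (adjusted p = 0.208).

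The 4 repair genes had median log2 changes against wt of 0.19 in 1KI and -0.04 in 3bKI. Polk, a polymerase that copies past damaged bases, was at 7.21, 7.14, 7.02, 7.55 and 7.47 in 1KI tumours, at 6.57, 6.31, 6.25, 6.69 and 6.91 in 3aKO livers and at 6.38, 6.62 and 6.88 in wt livers (lowest, median, highest). Every 1KI array lay above every liver array. Polk rose 1.55-fold relative to wt, by 0.63 ± 0.11 in log2 (SE, adjusted p = 0.0432), and differed by 0.74 ± 0.15 from 3aKO (adjusted p = 0.141). In 3bKI tumours Polk was at 6.88, 6.65, 7.00 and 6.99, against 6.38, 6.15, 5.99, 6.47 and 6.69 in 3aKO and 6.21, 6.44 and 6.79 in wt. Only replicate 2 overlapped the livers. The log2 change was called against 3aKO (0.54 ± 0.14, adjusted p = 0.0443) and not against wt (0.38 ± 0.12, adjusted p = 0.0972).

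Ddb2 and Xpc recognise damage in nucleotide excision repair, and Rrm2b supplies nucleotides for it. Ddb2 was at 7.01, 6.89, 7.23 and 6.84 in 3bKI tumours, below all of 7.31, 7.30, 7.25, 7.71 and 7.62 in 3aKO livers and within 6.80, 7.25 and 7.39 in wt livers (lowest, median, highest). The log2 change was -0.45 ± 0.12 relative to 3aKO (adjusted p = 0.0526) and -0.20 ± 0.12 relative to wt (adjusted p = 0.367). In 1KI tumours Ddb2 was at 7.69, 7.72, 7.12, 7.58 and 7.44, against a range of 7.32 to 7.72 in 3aKO and 6.80 to 7.48 in wt, an overlap with both (0.27 ± 0.13 against wt, adjusted p = 0.286). Neither Xpc nor Rrm2b was called: the log2 change against wt was 0.11 ± 0.15 in 1KI and 0.01 ± 0.12 in 3bKI for Xpc, and 0.05 ± 0.11 and -0.10 ± 0.10 for Rrm2b.

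The metabolic arm holds inhibitors of mTORC1 signalling: the sestrins Sesn1 and Sesn2, and Ddit4 and its paralog Ddit4l. Their median log2 change against wt was 0.24 in 1KI and 0.38 in 3bKI. Ddit4l was at 6.40, 6.28, 5.65, 5.56 and 6.30 in 1KI tumours, at 5.14, 5.13, 5.19, 5.31 and 6.20 in 3aKO livers and at 5.06, 5.30 and 5.33 in wt livers (lowest, median, highest). All 1KI arrays lay above the narrow wt range, with replicates 3 and 4 nearest to it, and 3aKO replicate 5 lay among the tumours. Ddit4l rose 1.73-fold relative to wt, by 0.79 ± 0.14 in log2 (SE, adjusted p = 0.0484). It lay among the 40% dimmest genes of this comparison and so had no test in the fit without them. Without 1KI replicates 3 and 4, the 1KI arrays with the lowest Ddit4l, the difference from wt was 1.08 ± 0.08 (adjusted p = 0.000288). With all 1KI arrays, the difference from 3aKO was 0.65 ± 0.24 (adjusted p = 0.294).

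In 3bKI tumours Ddit4l was at 5.44, 4.68, 5.40 and 6.22, against a range of 4.73 to 5.68 in 3aKO and 4.71, 4.85 and 4.93 in wt (lowest, median, highest). Replicate 2 lay below every wt array and the other 3 above them all. The log2 change of 0.60 ± 0.21 was not called (adjusted p = 0.132). Without replicate 2, the 3bKI array with the lowest Ddit4l, it was 0.85 ± 0.15, a call (adjusted p = 0.0298). The further probe sets of Ddit4l gave larger log2 changes, 1.18 ± 0.16 and 1.16 ± 0.18 in 1KI and 1.26 ± 0.23 and 1.34 ± 0.32 in 3bKI, each against wt. Their means over all arrays were lower than that of the probe set used.

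Ddit4 was at 7.80, 8.14, 7.46, 8.67 and 7.65 in 1KI tumours, at 7.87, 7.51, 7.78, 7.01 and 7.70 in 3aKO livers and at 7.13, 7.25 and 8.13 in wt livers (lowest, median, highest). Replicate 4 was highest, and the groups overlapped (log2 change against wt 0.46 ± 0.22, adjusted p = 0.280). In 3bKI it was at 7.71, 7.73, 7.77 and 8.16, against 7.02, 7.19 and 7.98 in wt (0.45 ± 0.18, adjusted p = 0.192). The log2 change of Sesn1 was -0.09 ± 0.10 in 1KI and 0.02 ± 0.09 in 3bKI, and that of Sesn2 0.03 ± 0.11 and 0.31 ± 0.14, none called.

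The half-site stretches of Polk and Ddit4l are shown because both genes were called in 1KI tumours. The capitals mark the half-site, 222 to 231 bases before the start of Polk (minus strand, chr13:96519384-96519437) and 81 to 90 bases before that of Ddit4l (plus strand, chr3:137623557-137623616).
Polk: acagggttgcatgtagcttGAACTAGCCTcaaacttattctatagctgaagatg
Ddit4l: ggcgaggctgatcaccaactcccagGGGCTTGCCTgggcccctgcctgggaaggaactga
Exact half-sites also stood in the windows of Gadd45a, Aen, Ei24 and Sesn1.

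Of 40 further pathway genes listed, 36 were measured: 15 upstream regulators of p53 and 21 other targets. None was called in 1KI against wt or 3aKO or in 3bKI against wt. Cdkn1a, which encodes the p21 inhibitor of cyclin-dependent kinases, was at 8.68, 11.20, 9.62, 9.36 and 9.74 in 1KI tumours, at 7.38, 7.02, 6.78, 6.50 and 7.27 in 3aKO livers and at 6.60, 7.31 and 9.29 in wt livers (lowest, median, highest). The 1KI arrays lay above all 3aKO arrays, and wt replicates 1 and 4 lay above the lowest of them. The log2 change against wt was 2.01 ± 0.53 (adjusted p = 0.117). In 3bKI it was at 9.08, 8.88, 9.40 and 9.18, all above the 3aKO range of 6.48 to 7.31, with a log2 change of 2.20 ± 0.18 against 3aKO (adjusted p = 0.00178) and 1.49 ± 0.47 against wt (adjusted p = 0.109).

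In 3bKI against 3aKO, 4 of the 21 other targets rose and 1 fell, against 2.92% and 6.27% of all genes. Lif, a cytokine, changed by 0.63 ± 0.13, Ak1, an adenylate kinase, by 0.56 ± 0.11, and Gtse1, which restrains p53 in G2 phase, by 0.34 ± 0.09, beside Cdkn1a. Aldh4a1, an enzyme of proline breakdown, changed by -0.73 ± 0.14. Of the 15 regulators, 3 fell and 0 rose, against 6.27% and 2.92% of all genes. They were the damage kinase Atr (-0.52 ± 0.12), the p53 inhibitor Mdm4 (-0.36 ± 0.08) and the ubiquitin ligase Cop1 (-0.32 ± 0.08).

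Tumour arrays differed in which targets were high. The number of targets above all 7 wt arrays was 16, 18, 13, 18 and 16 of 31 in 1KI replicates 1 to 5, where the same held for 10.5%, 12.0%, 18.4%, 23.6% and 12.7% of all genes. In 3bKI it was 9, 5, 15 and 15 of 31, against 17.2%, 19.4%, 16.8% and 15.3% of all genes. In 1KI replicates 3 and 4, Btg2, Apaf1, Psrc1 and Bcl2l1 were highest of the group, while Phlda3, Ccng1, Zmat3, Aen, Eda2r and Ddit4l were lowest. In 3bKI, replicate 2 was the lowest array in 18 of 31 targets (58.1%), against 28.4% of all genes, yet it had the highest Btg2 and Ckap2. Among the normal livers, 3aKO replicate 5 was the highest 3aKO array in 14 of 31 targets (45.2%), against 16.01% of all genes, including Mdm2, Ccng1, Zmat3, Phlda3, Eda2r and Ddit4l.

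**Figure D3:**
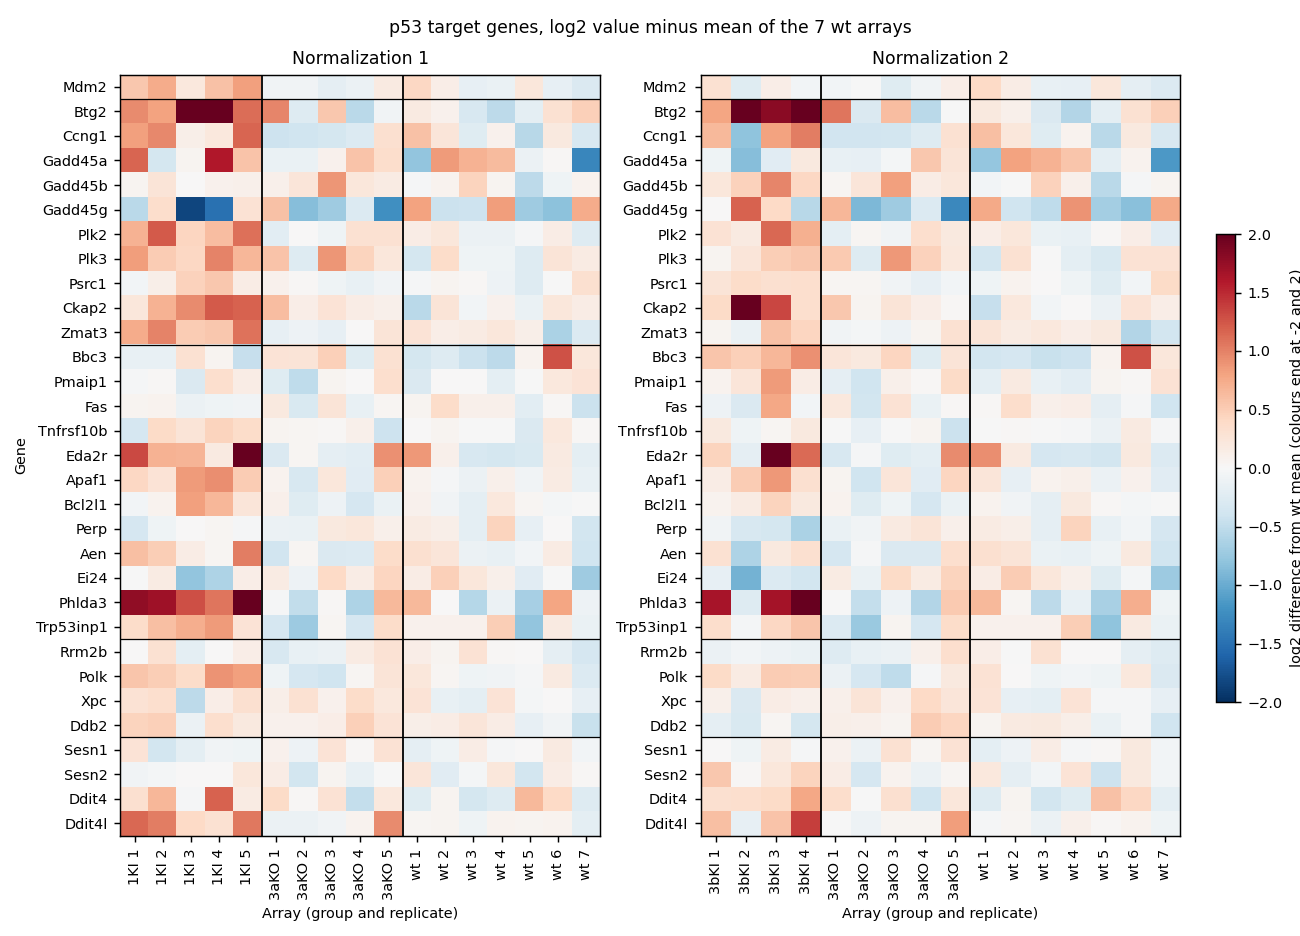
Log2 value of each p53 target (rows, by arm) minus the mean of the 7 wt arrays, in every array (columns) of normalization 1 (left) and normalization 2 (right), with red for higher and blue for lower and colours ending at -2 and 2. Phlda3 is red in all 1KI columns and in 3 of 4 3bKI columns, and 3bKI replicate 2 is blue in Ccng1, Aen and Ei24.

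Several other measures also differed between groups or arrays. The median of 10 integrated stress response genes, relative to the wt mean, was 2.70 in 1KI replicate 4 and -0.23 to 0.72 in the other 1KI arrays. The mean level of 10 stellate cell and fibroblast markers was 7.92 to 8.33 in 1KI against 7.16 to 7.68 in wt, and 7.69 to 8.52 in 3bKI against 7.05 to 7.56 in wt, with 1 and 4 of the 10 called higher, against 0.209% and 1.09% of all genes. That of 10 macrophage and Kupffer cell markers was 8.81 to 10.11 in 1KI against 9.22 to 10.24 in wt, and 9.52 to 11.30 in 3bKI against 9.12 to 10.17 in wt, with none called against wt. Of 10 endothelial markers, 9 had a higher mean in 1KI than in wt and 1 was called, against 43.3% and 0.209% of all genes. Their median relative to the wt mean was 1.29 in 1KI replicate 4 and 0.05 to 0.35 in the other 1KI arrays. Of 8 T and NK cell markers and 8 neutrophil markers, 0 had a higher mean in 1KI than in wt, against 43.3% of all genes. In 3bKI, 7 of 8 and 8 of 8 had a higher mean than in wt, against 53.1% of all genes. For macrophage and Kupffer cell markers it was 2 of 10 in 1KI and 10 of 10 in 3bKI. For B and plasma cell markers it was 2 of 7 and 6 of 7. None of these immune markers was called against wt in either tumour group. In 3bKI replicate 3 the medians of the macrophage, T and NK cell, and B and plasma cell markers were 1.52, 0.93 and 0.92, above the other 3bKI arrays. The log2 ratio of 3' to 5' beta-actin probe sets, a sign of RNA quality, was 0.70 to 0.87 in 3bKI, against 1.06 to 1.35 in 3aKO and 0.65 to 1.37 in wt. That of GAPDH was 0.14 to 0.18 in 3bKI, against 0.15 to 0.26 in 3aKO and 0.20 to 0.32 in wt, so every 3bKI array lay below every 3aKO array in the first ratio and below every wt array in the second. In 1KI the beta-actin ratio was 0.91 and 0.95 in replicates 3 and 4 and 1.05 to 1.28 in the others, against 0.63 to 1.38 in wt. The GAPDH ratio was 0.07 and 0.23 in these 1KI replicates, the lowest and highest of the group. Read from Xist and 3 Y-linked genes, 3 of 4 3bKI arrays were female and replicate 2 was unclear, against 3 females and 2 males in 3aKO and 3 females and 4 males in wt. The 1KI arrays were 2 females and 3 males. With sex as a covariate and the unclear array left out, 0 targets were called in 3bKI against wt (Btg2 at 1.50 ± 0.33, adjusted p = 0.0957) and Phlda3 alone against 3aKO (1.64 ± 0.18, adjusted p = 0.0152), where Btg2, Polk, Psrc1 and Ei24 were not. The part of stromal, endothelial and immune cells, stress and RNA quality in the target values was not tested.

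**Figure D4:**
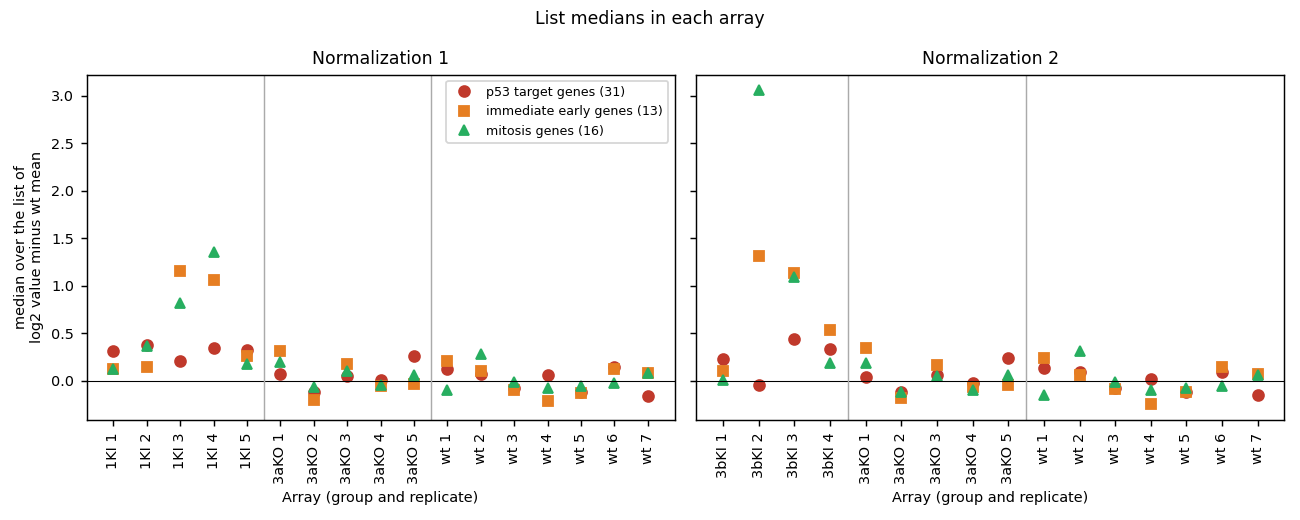
Median over each gene list of the log2 value minus the wt mean (vertical axis) in every array (horizontal axis), for 31 p53 targets, 13 immediate early genes and 16 mitosis genes, in normalization 1 (left) and normalization 2 (right). The p53 target median is 0.21 to 0.38 in the 1KI arrays, and in 3bKI replicate 2 it is -0.05 while the mitosis median is 3.06.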

How the data were processed

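The authors deposited log2 expression values per Affymetrix probe set. Per the labels' protocols, Trizol total RNA was labelled as biotinylated cRNA from 5 ug. The method of the 2 normalizations is not given in the sources used here. The 12 wt and 3aKO arrays in both correlated across genes at r of 0.9989 to 0.9990. Of 45101 probe sets, 34945 carried 1 symbol; the one with the highest mean per gene gave 18193 genes. The number of arrays limits the precision, and detection calls were not used.

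Each comparison was fitted on its 2 groups with limma 3.58.1 (lmFit, eBayes) in R 4.3.3, two-sided, with Benjamini-Hochberg adjustment; the fit was tested on simulated data. SE is limma's moderated standard error. The targets and lists were chosen with earlier results of these data known. Values by array are given for Mdm2, targets called in any comparison and, in each arm, the 2 with the lowest p in 1KI and in 3bKI against wt; pathway genes are named where called, plus Cdkn1a. Replicate numbers were not taken to pair the samples. Alternatives were quantile normalization, array centring, removal of the 40% dimmest genes, other probe sets, a fit of all 3 groups, trend and robust eBayes, sex (3bKI replicate 2, of unclear sex, left out), a replicate block (unmatched arrays then add nothing), and left-out arrays. Promoters came from RefSeq (GRCm38.p6).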

Additional observations from a re-analysis of the deposited data

Results flagged for a closer look

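Within groups of 4 to 7 arrays, 11 of 124 sets of target values held 1 array far from the others by Dixon's criterion, which chance meets in about 1 of 20 groups. Of these, 4 fell in 3aKO replicate 5: Ccng1 at 9.53, Eda2r at 5.00 and Ddit4l at 6.20 were above the other 3aKO arrays, and Tnfrsf10b at 4.39 was below them. Gadd45b was high in 3aKO replicate 3, at 7.07. In 3bKI replicate 2, Aen at 8.01 and Xpc at 7.59 were below the other 3bKI arrays. Ddit4 was high in 3bKI replicate 4, at 8.16. In 1KI, Tnfrsf10b was low in replicate 1, at 4.46, and Xpc was low in replicate 3, at 7.50. Bbc3 was high in wt replicate 6, at 8.46. The sources of these differences were not tested.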

How the results depend on the processing

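The median log2 change of the 31 targets stayed above 0 in all tumour comparisons under every alternative run. In 1KI against wt it was 0.39 with quantile normalization, 0.35 with the replicate block and 0.38 without 1KI replicates 3 and 4, and leaving out 1 array gave 0.28 to 0.52. The ranges with 1 array left out were 0.21 to 0.44 in 1KI against 3aKO, 0.26 to 0.36 in 3bKI against wt, 0.26 to 0.38 in 3bKI against 3aKO and -0.03 to 0.08 in 3aKO against wt. Calls were less stable. Of targets in 1KI against wt, 0 were called with quantile normalization, 2 with array centring (Phlda3 and Polk), 9 in the fit of all 3 groups, 0 with the replicate block and 0 to 3 with 1 array left out. In 1KI against 3aKO, 4 were called in the fit of all 3 groups, 1 with sex (Phlda3), 4 without 1KI replicates 3 and 4, and 0 with any 1 array left out. Over all genes, 37 were called higher and 20 lower in that fit of all 3 groups. With sex it was 2 and 1, and without 1KI replicates 3 and 4 it was 20 and 3. In 3bKI against wt, 2 were called with the mean of probe sets, 3 in the fit of all 3 groups, 0 with sex and no 3bKI replicate 2, 2 with the replicate block (Btg2 and Bbc3) and 0 to 3 with 1 array left out. In 3bKI against 3aKO, 1 was called with quantile normalization (Bcl2l1) and 1 with sex and no 3bKI replicate 2 (Phlda3), neither among the 4 called otherwise, 0 with the replicate block and 0 to 4 with 1 array left out (0 without 3aKO replicate 4, 1 without 3aKO replicate 5). In 3aKO against wt it was 0 with any 1 array left out. Single probe sets reversed Plk2 in 1KI against wt (-0.10) and Psrc1 in 3bKI against 3aKO (-0.14). Over all genes, the 38 higher and 6 lower in 1KI against wt became 1 and 0 with the replicate block and 220 and 93 in the fit of all 3 groups; the 199 and 178 in 3bKI against wt became 127 and 37 without 3bKI replicate 2, 50 and 17 with sex as well, 453 and 543 in the fit of all 3 groups, 288 and 406 with the block, and 197 and 548 with centring. The 531 and 1140 in 3bKI against 3aKO became 322 and 522 with quantile normalization, 328 and 1638 with centring, 306 and 631 without 3bKI replicate 2, 62 and 83 with sex as well, 157 and 429 without 3aKO replicate 5, and 19 and 31 with the block, to which that unmatched array adds nothing. The causes were not tested. The numbers were not taken as pairs: correlations of same-numbered deviations ran from -0.47 to 0.44 over the 5 comparisons, and in 3bKI against 3aKO from 0.06 to 0.28, with 3 of 4 over 0.1. In the block fits, 0 to 2 of the 4 to 5 arrays correlated best with their own number.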
